A study of Mus musculus with 9 samples.

Results

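The genes described here are the semaphorins with their plexin and neuropilin receptors, and the ephrins with their Eph receptors, as counted by RNA sequencing in mouse mesenchymal stem cells. They were chosen by gene name alone: every entry of the count table whose symbol marks a semaphorin of classes 3 to 7, a plexin, a neuropilin, an ephrin or an Eph receptor was taken, which gave 53 of 23358 genes. No count enters that rule, but the families were picked with results of these libraries in view, so counts of members that changed describe the families and are no independent support. The members are 7 secreted class 3 semaphorins, 13 membrane semaphorins, 2 neuropilins, 9 plexins, 5 ephrins A, 3 ephrins B, 9 EphA receptors and 5 EphB receptors.

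Semaphorins and ephrins are cues that tell a cell where to move or where to stop. Class 3 semaphorins are secreted and mostly bind a neuropilin, which passes the signal through a plexin of class A or D, whereas the membrane semaphorins bind plexins directly. Ephrins stay on the cell surface, ephrins A by a lipid anchor and ephrins B by a membrane span, and signal to Eph receptor tyrosine kinases on a touching cell and back into their own. In bone, osteoblast-derived Sema3a restrains osteoclasts through Nrp1, and ephrin B2 with Ephb4 carries signals between osteoclasts and osteoblasts.

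The cells, which can form bone, cartilage and fat, came from adult C57BL/6 marrow and were used at passages 4 to 10. They were kept in osteogenic medium and lysed on day 4 after siRNA transfection. The siCTL group had non-targeting siRNA only. The GSK126 group had that siRNA together with 5 µM GSK126, a small molecule that inhibits Ezh2, the histone H3 lysine 27 methyltransferase of Polycomb repressive complex 2. In the siBcat group the siRNA targeted Ctnnb1, the gene of beta-catenin, which links cadherins to actin and relays Wnt signals to the nucleus. Each group had 3 libraries. Titles, source names, series text and column names give siBcat no inhibitor, while its treatment label lists 5 µM GSK126, and the groups here follow the titles.

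Summed counts ran from 42324200 to 55898774 per library. Ctnnb1 stood at 854, 860.1 and 879 CPM (counts scaled to library size) in siCTL and at 19.3, 19.3 and 19.1 CPM in siBcat, 44.9-fold lower. With GSK126 it was at 925, 949.7 and 906 CPM, above every control library. That difference was not past 0.05 (edgeR quasi-likelihood test, log2 fold change 0.10, SE 0.04, adjusted p = 0.109). The adjusted p was 0.00763 without GSK126 replicate 3 and 0.0465 with library size scaling alone. Ezh2 transcript was at 23.7 ± 0.623 CPM in siCTL, 27.9 ± 1.72 with GSK126 and 27.5 ± 0.447 in siBcat (SD, n = 3). It was higher with GSK126 (log2 fold change 0.23, SE 0.06, adjusted p = 0.0169) and in siBcat (0.21, SE 0.06, adjusted p = 0.0195), without overlap. The GSK126 call was lost without siCTL replicate 1 (0.0662), siCTL replicate 2 (0.0681) or GSK126 replicate 1 (0.0751). The siBcat call was lost without siCTL replicate 1 (0.0696) or 2 (0.0749) and without siBcat replicate 1 (0.0563), 2 (0.0524) or 3 (0.0722). The library GSK126 replicate 3 stood apart, since a smooth trend on gene length took 21.4% of the variance of its log2 deviations from its group, against 0.084 to 0.816% in the siCTL and siBcat libraries and 7.06 and 9.28% in its own group. The members were long, at a median of 4311 bases against 2851 over all genes tested, and their median deviation in that library was -0.16 on the log2 scale, so results that turn on it are given without it too. Of 12 stromal markers listed, 11 were tested and Thy1 was at 0 counts in every library. Their summed level was 26666 to 31567 CPM in siCTL, 33956 to 36920 with GSK126 and 23767 to 25844 in siBcat. Most of that sum came from Col1a2, Col1a1 and Cxcl12, at means of 15383, 8871 and 3750 CPM in siCTL. With GSK126 they were at 16011, 10325 and 8002 CPM, so the sum mainly follows these genes. Summed levels of the other cell types' markers were low in all groups. They were 2.78 to 3.23, 2.8 to 3.45 and 3.54 to 3.8 CPM in siCTL, GSK126 and siBcat for 10 haematopoietic genes, with Ptprc, Tyrobp, Aif1 and Emr1 at 0. They were 1.18 to 1.72, 1.32 to 1.98 and 0.779 to 1.14 CPM for 8 endothelial genes, with Cldn5 at 0. For 9 genes of neurons and glia the sums were 3.23 to 3.44, 3.65 to 4 and 2.68 to 3.97 CPM, with Sox10 at 0. The stromal, haematopoietic and endothelial sums of siBcat did not overlap those of siCTL, nor did the stromal and the neuron and glia sums of GSK126. Of the 11 stromal genes tested, 1 was higher (9.09%) and 4 were lower (36.4%) in siBcat. Over all genes tested, 17.7% were higher and 17.5% lower there. With GSK126, 3 were higher (Cxcl12, Vcam1 and Ly6a) and 3 lower (Prrx1, Pdgfra and Pdgfrb), 27.3% each, against 14.3% and 10.7% of all genes tested. The part of these markers in the results was not tested. As these are bulk cultures, fewer cells of one kind and less RNA per cell cannot be told apart.

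Of the 53 members, 42 passed the filter on low counts and were tested. The remaining 11 never exceeded 16 counts in a library. Epha5 and Epha6 had 0 counts in all 9 libraries. If each count were independent, that would allow up to about 3 counts, or 0.053 to 0.073 CPM depending on the library and for counting error only. All counts were even, as if both mates were counted, and the limit is then higher. Epha8, Epha10 and Ephb1 reached 2 counts, Plxna4 and Sema5b 4, Sema6a 6, Sema4d and Sema4f 12 and Plxnc1 16.

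Per length, receptors and 3 semaphorins held the highest levels of the members (levels are CPM divided by gene length in kilobases, mean ± SD, n = 3 libraries). In siCTL the leading plexin was Plxnb2, a receptor of class 4 semaphorins, at 72.4 ± 4.2 CPM per kb. Nrp2 at 59.4 ± 0.966 led the neuropilins, ahead of Nrp1 at 53 ± 0.291. Sema3a led the semaphorins at 51.4 ± 1.65, followed by Plxna1 (48 ± 2.2), which pairs with neuropilins, Sema5a (45.3 ± 0.183) and the lipid-anchored Sema7a (41 ± 1.6). Neighbours in this order from Nrp1 to Sema5a had overlapping or nearly touching libraries and are not told apart by their spread, whereas Nrp2 lay above Nrp1 in every library. Lower down came Plxnd1, the receptor of Sema3e, at 19.3 ± 1.21 CPM per kb, followed by Efnb1, the leading ephrin, at 17.9 ± 3, Ephb3, the leading Eph receptor, at 14.9 ± 0.581, and Ephb4 at 12.6 ± 1.16. The libraries of Efnb1 overlapped those of Plxnd1 and of Ephb3, so those neighbours do not differ beyond their spread. In siBcat the order at the top changed, with Sema7a at 67.8 ± 2.33 CPM per kb above Sema3a at 32.7 ± 0.731, and with GSK126 Sema7a was at 25.8 ± 0.823.

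**Figure D1:**
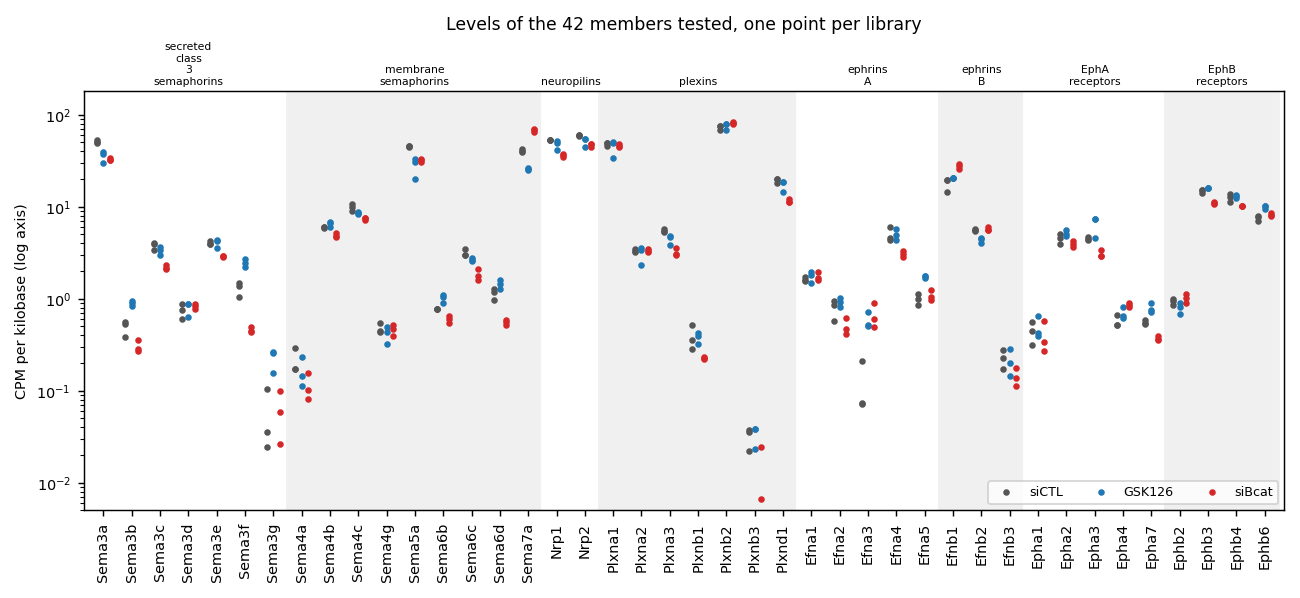
Level of each tested member in each library, as CPM per kilobase of gene length on a log axis, by family, with 1 point per library coloured by group. Plxnb2, Nrp2, Nrp1, Sema3a, Plxna1, Sema5a and Sema7a hold the highest levels in siCTL, and Plxnb3 in siBcat replicate 3 is not drawn because its count was 0.

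The stretches just upstream of 4 genes and the letters of a Wnt-related motif in another 2 are shown because Polycomb sites in mammals tend to lie at CpG-rich promoters and beta-catenin reaches DNA through Tcf/Lef factors. Sema7a moved in opposite directions with the 2 treatments, while Efna5, Epha7 and Sema3g were higher with GSK126. Each stretch is the 250 bases before the RefSeq start (GRCm38.p6), 5′ to 3′ on the gene's strand, with CpG dinucleotides in capitals.
Sema7a, chr9:57939862-57940111, plus strand: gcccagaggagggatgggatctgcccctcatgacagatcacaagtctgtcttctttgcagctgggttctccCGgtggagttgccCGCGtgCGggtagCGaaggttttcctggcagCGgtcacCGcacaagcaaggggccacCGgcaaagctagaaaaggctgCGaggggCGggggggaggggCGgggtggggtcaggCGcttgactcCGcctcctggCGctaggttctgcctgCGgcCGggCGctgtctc
Efna5, chr17:62881318-62881567, minus strand: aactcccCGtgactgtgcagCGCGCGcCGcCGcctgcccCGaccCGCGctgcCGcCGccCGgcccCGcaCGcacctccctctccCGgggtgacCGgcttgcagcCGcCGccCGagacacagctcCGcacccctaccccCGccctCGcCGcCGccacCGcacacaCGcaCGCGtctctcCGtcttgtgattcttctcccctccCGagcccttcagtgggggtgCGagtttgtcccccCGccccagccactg
Epha7, chr4:28812881-28813130, plus strand: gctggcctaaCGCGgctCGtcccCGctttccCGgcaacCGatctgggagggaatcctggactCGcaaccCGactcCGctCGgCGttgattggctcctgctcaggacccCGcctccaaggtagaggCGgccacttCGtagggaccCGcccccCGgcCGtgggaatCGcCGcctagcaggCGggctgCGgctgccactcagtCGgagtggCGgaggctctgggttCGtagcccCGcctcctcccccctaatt
Sema3g, chr14:31217623-31217872, plus strand: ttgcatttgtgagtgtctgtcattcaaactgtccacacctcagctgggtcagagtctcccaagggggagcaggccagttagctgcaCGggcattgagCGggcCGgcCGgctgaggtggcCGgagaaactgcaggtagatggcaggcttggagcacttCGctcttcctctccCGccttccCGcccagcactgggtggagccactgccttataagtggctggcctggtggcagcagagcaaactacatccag

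Efna5 holds 32 CpG in that stretch, Epha7 25, Sema7a 17 and Sema3g 8. Sema3g had few counts and passed the filter through the GSK126 libraries. RefSeq promoters, counted from 250 bases before to 50 after the start, were at hand for 47 of the 53 members. Taking for each gene the promoter with most CpG, the median was 23 CpG over 38 tested members and 22 over 9391 tested genes. Over all 32851 promoters of the table the median was 7, and the Sema3g window held 8. Members higher with GSK126 had a median of 28.5 CpG (8 genes), those lower with it 23 (6 genes) and those not past the threshold 21.5 (24 genes). These medians are descriptions of few genes, and no histone mark was analysed here.

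The core letters CTTTGAT or CTTTGAA, on either strand, were found in 3 of 61 member promoters (4.92%), those of Nrp2, Sema3e and Epha2, and in 8.65% of all 32851 promoters of the table. With 1 promoter per gene, as for the CpG counts, the shares were 7.89% of the 38 tested members and 5.38% of the 9391 tested genes. The members' share lies below or above the rest depending on the set, and 3 matches decide it. The first 2 genes fell in siBcat, while Epha2 did not pass the threshold there. Of members with a promoter, 2 of 19 lower in siBcat held a match, 1 of 15 not past the threshold and 0 of 4 higher. The 2 printed matches were picked among genes that fell. The match (capitals, plus strand) begins 146 bases before the start in Nrp2 and 119 in Sema3e, where it is the reverse complement of CTTTGAA. A match is a run of letters, not a shown binding site.
Nrp2, chr1:62703161-62703187: ggcaccttaaCTTTGATcgcgcggccg
Sema3e, chr5:14025147-14025173: gaatgagcatTTCAAAGtccttcccga

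Comparison of siBcat with siCTL asks what loss of beta-catenin did to these cues and receptors. Most members that changed fell: 21 of 42 were lower (50.0%) and 4 were higher (9.52%), where 17.5% of all genes tested were lower and 17.7% higher (edgeR quasi-likelihood test, Benjamini-Hochberg adjusted p under 0.05 over 13240 genes). The 4 include Efna3, which passed the filter through treated libraries. With a filter of 1 CPM in 3 libraries, 22 members were lower and 3 higher, and over all genes 2282 were lower and 2273 higher. The numbers tested under that filter are not given here, so these counts are not shares. Log2 fold changes are given ± SE throughout. The median log2 fold change of the 42 was -0.40, against 0.00 over all genes tested. Among them, 5 of 7 secreted semaphorins, both neuropilins and 3 of 7 plexins fell, while Sema7a and Efnb1 rose. In 28 of the 42 (66.7%) the 3 libraries of one group did not overlap those of the other, against 55.2% of all genes tested.

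With GSK126 the members split. Of the 42, 10 were higher than in siCTL (23.8%) and 6 lower (14.3%), where 14.3% of all genes tested were higher and 10.7% lower. The 10 include Efna3 and Sema3g, which had few counts in siCTL and passed the filter through treated libraries. With a filter of 1 CPM in 3 libraries, under which neither was tested, 8 members were higher and 6 lower. Over all genes that filter gave 1812 higher and 1421 lower, counts that are likewise not shares. In the main fit the median log2 fold change of the 42 was 0.04, against 0.01 over all genes. Of the 42, 21 (50.0%) had non-overlapping groups, against 42.1%. Among those that rose were 2 of 5 ephrins A, 2 of 5 EphA receptors and 3 of 7 class 3 semaphorins, while Sema3a, Sema5a, Sema7a and Efnb2 fell.

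Set against each other directly, siBcat was lower than GSK126 in 23 of the 42 (54.8%) and higher in 3 (7.14%), where 21.9% of all genes tested were lower and 19.3% higher. The 23 include Sema3g, which passed the filter through the GSK126 libraries. With a filter of 1 CPM in 3 libraries, 22 members were lower and 3 higher, and over all genes 2766 were lower and 2459 higher. The median log2 difference was -0.40, against -0.01 over all genes, and 29 members (69.0%) had non-overlapping groups, against 52.5%. Since both treatments share the siCTL libraries, differences between them below come from this direct comparison.

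**Figure D2:**
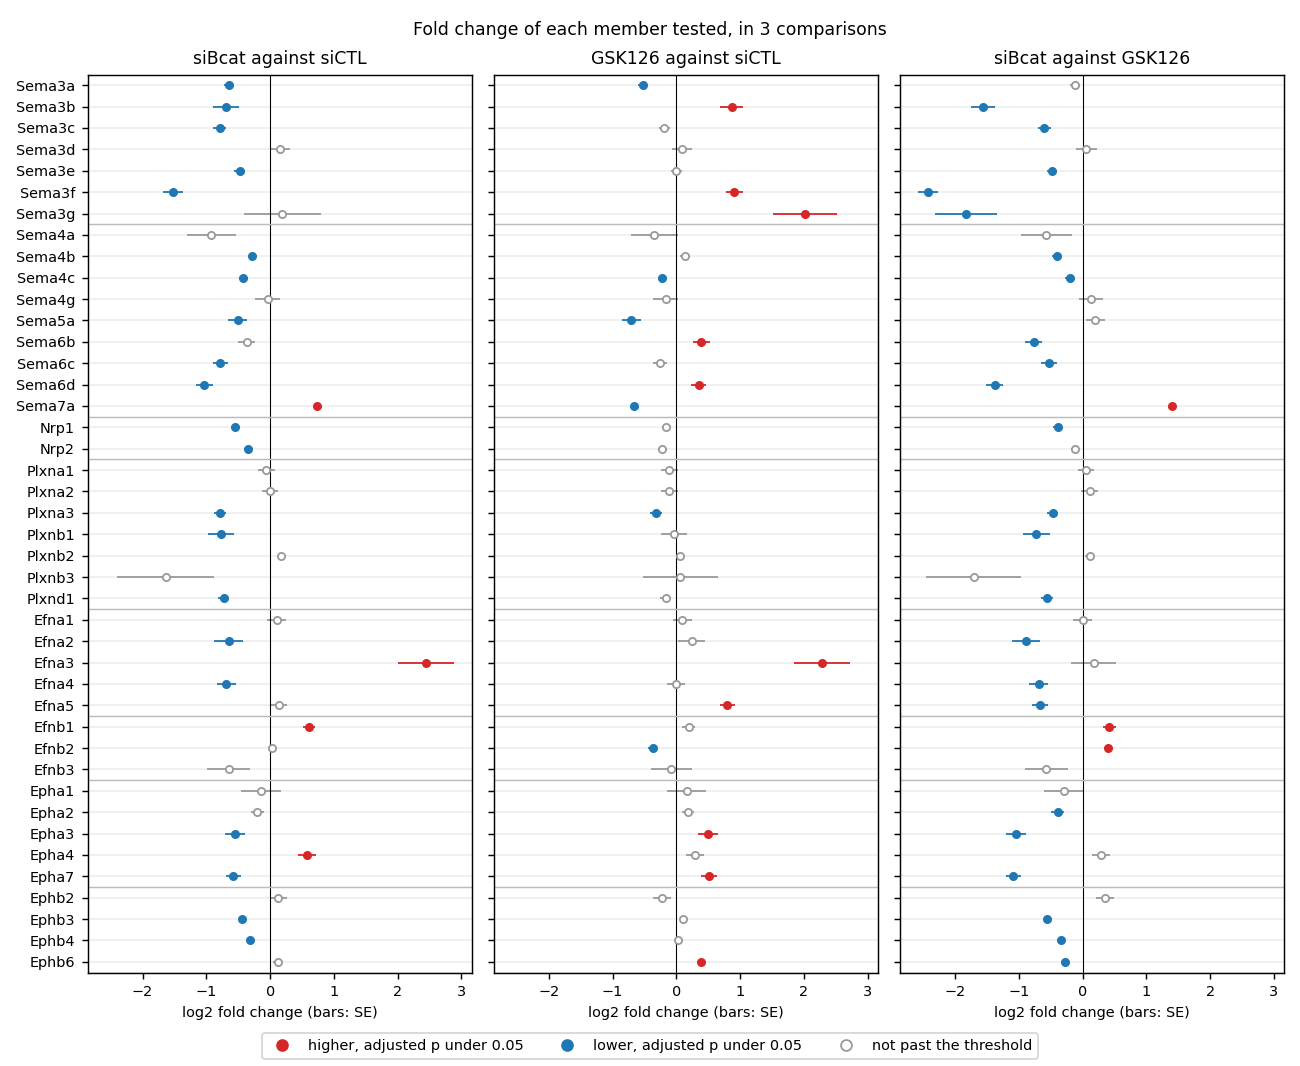
Log2 fold change (x axis, bars are the SE) of each tested member in rows by family, with 1 panel for each of the 3 comparisons and filled points where the adjusted p was under 0.05. Filled points number 21 lower and 4 higher in siBcat against siCTL, 6 and 10 in GSK126 against siCTL, and 23 and 3 in siBcat against GSK126.

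Of the 7 secreted class 3 semaphorins, 5 fell in siBcat (Sema3a, Sema3b, Sema3c, Sema3e and Sema3f) and none rose. With GSK126, 3 rose (Sema3b, Sema3f and Sema3g) and Sema3a fell. Sema3f (9:107681500-107710475, GRCm38), a ligand of Nrp2, was at 5.07, 4.67 and 3.56 CPM in siCTL, 7.45, 9.23 and 8.26 with GSK126 and 1.51, 1.46 and 1.66 in siBcat. The 3 groups did not overlap, with GSK126 highest and siBcat lowest. Sema3f fell 2.87-fold in siBcat (log2 fold change -1.52 ± 0.16, adjusted p = 1.27e-05) and rose 1.87-fold with GSK126 (log2 fold change 0.91 ± 0.14, adjusted p = 0.000445), which left siBcat 5.37-fold below GSK126 (log2 fold change -2.43 ± 0.16, adjusted p = 1.08e-07).

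Sema3b showed the same order at a lower level, 1.9, 1.81 and 1.32 CPM in siCTL, 2.86, 3.08 and 3.22 with GSK126 and 1.22, 0.971 and 0.919 in siBcat. Its rise with GSK126 was 1.82-fold (log2 fold change 0.87 ± 0.18, adjusted p = 0.00337) with no overlap, and siBcat lay 2.95-fold below GSK126 (log2 fold change -1.56 ± 0.19, adjusted p = 2.62e-05). Its fall in siBcat (log2 fold change -0.69 ± 0.20, adjusted p = 0.0152) had no overlap either, but the adjusted p was 0.0599 without siCTL replicate 1, 0.052 without siCTL replicate 2, 0.0552 without siBcat replicate 2 and 0.0597 without siBcat replicate 3.

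Sema3a (5:13125414-13602565), the class 3 semaphorin with the highest level, was at 364, 373 and 388 CPM in siCTL, 272, 285 and 220.0 with GSK126 and 236, 244 and 234 in siBcat. It was below every control library in both treated groups, by 1.57-fold in siBcat (log2 fold change -0.65 ± 0.08, adjusted p = 4.01e-05) and 1.45-fold with GSK126 (log2 fold change -0.53 ± 0.08, adjusted p = 0.000368). The treatments did not differ past the threshold (log2 fold change -0.12 ± 0.08, adjusted p = 0.241). Without GSK126 replicate 3, its lowest library, siBcat was lower (log2 fold change -0.22, adjusted p = 3.26e-05) and the fall with GSK126 was -0.43 (adjusted p = 1.06e-08).

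Sema3c and Sema3e, ligands linked to vessel and nerve patterning, fell in siBcat and did not pass the threshold with GSK126. Sema3c was at 17, 19.8 and 19.7 CPM in siCTL, 16.6, 18.3 and 14.7 with GSK126 and 10.5, 11.5 and 10.6 in siBcat. All siBcat libraries were below all others (log2 fold change -0.79 ± 0.10, adjusted p = 3.84e-05, 1.73-fold). Sema3e, whose promoter match is printed above, was at 27, 29 and 26.8 CPM in siCTL, 29.6, 29 and 24.3 with GSK126 and 19.9, 19.8 and 19.7 in siBcat. It fell 1.4-fold in siBcat (log2 fold change -0.48 ± 0.08, adjusted p = 0.000417), also below every other library, and both genes were lower in siBcat than with GSK126 (Sema3c log2 fold change -0.60 ± 0.10, adjusted p = 0.000276, and Sema3e log2 fold change -0.48 ± 0.08, adjusted p = 0.000313).

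Sema3g, whose upstream stretch has the fewest CpG of those marked for CpG above, was near the floor of detection in controls. It had 4, 6 and 18 counts in siCTL, 54, 42 and 30 with GSK126 and 4, 18 and 10 with siBcat. It passed the filter through the GSK126 group, so the filter favoured a difference there. Its values describe the gene and are no independent support for a rise. The groups siCTL and GSK126 did not overlap (4.04-fold, log2 fold change 2.02 ± 0.50, adjusted p = 0.0113). The adjusted p was 0.0515 without siCTL replicate 1 and 0.058 without siCTL replicate 2, and the log2 fold change was 2.87 without siCTL replicate 3. It was lower in siBcat than with GSK126 (log2 fold change -1.83 ± 0.49, adjusted p = 0.00959). Sema3d, from 3.89 to 5.78 CPM over the 9 libraries, changed past the threshold in no comparison.

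Of 9 membrane semaphorins tested, 5 fell in siBcat (Sema4b, Sema4c, Sema5a, Sema6c and Sema6d) and Sema7a rose. With GSK126, Sema6b and Sema6d rose and Sema4c, Sema5a and Sema7a fell. Sema7a (9:57940112-57962865), which binds integrins as well as Plxnc1 and whose upstream stretch is printed above, was at 140.0, 129.9 and 133 CPM in siCTL, 87.2, 84 and 81.9 with GSK126 and 230.4, 215 and 221 in siBcat. The 3 groups stood clear of each other, in opposite directions from the control, with siBcat 1.65-fold above it (log2 fold change 0.73 ± 0.05, adjusted p = 4.74e-07) and GSK126 1.59-fold below it (log2 fold change -0.67 ± 0.05, adjusted p = 2.37e-06). The direct difference was 2.63-fold (log2 fold change 1.40 ± 0.05, adjusted p = 1.44e-09), the smallest adjusted p of any member in the 3 comparisons. Its receptor Plxnc1 did not pass the filter, at 16 counts or fewer per library.

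Sema6d (2:124089969-124667770), a ligand of Plxna1 that also signals backwards, was at 8.28, 6.39 and 7.77 CPM in siCTL, 10.5, 9.56 and 8.42 with GSK126 and 3.41, 3.68 and 3.85 in siBcat. It fell 2.05-fold in siBcat with every library below all others (log2 fold change -1.03 ± 0.13, adjusted p = 4.74e-05), and stood 2.6-fold below GSK126 (log2 fold change -1.38 ± 0.13, adjusted p = 2.5e-06). The GSK126 rise (log2 fold change 0.35 ± 0.12, adjusted p = 0.0494) passed narrowly and was lost in 12 of 19 alternatives. The adjusted p was 0.212 without siCTL replicate 2, 0.0907 without siCTL replicate 3, 0.179 without GSK126 replicate 1, 0.0906 without GSK126 replicate 2, 0.0727, 0.0734 and 0.0703 without siBcat replicates 1, 2 and 3, and 0.0631 with a replicate block. Sema6c was at 8.46, 9.96 and 8.45 CPM in siCTL, 7.28, 7.44 and 7.8 with GSK126 and 5.06, 5.95 and 4.55 in siBcat. It fell 1.72-fold in siBcat (log2 fold change -0.78 ± 0.12, adjusted p = 0.000201), with the siBcat libraries lowest, and GSK126 lay between, not past the threshold (log2 fold change -0.25 ± 0.11, adjusted p = 0.115; 0.042 with the length trend removed), while the direct difference passed (log2 fold change -0.53 ± 0.12, adjusted p = 0.00278).

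Sema5a, the membrane semaphorin with the highest level per length in siCTL, was at 489, 488 and 492 CPM in siCTL, 332, 354 and 214 with GSK126 and 353, 332 and 346 in siBcat. All 6 treated libraries were below all controls, and GSK126 replicate 3 was far below the other 2 of its group. The fall was 1.63-fold with GSK126 (log2 fold change -0.71 ± 0.15, adjusted p = 0.0088), and without that replicate the log2 fold change was -0.52 (adjusted p = 4.06e-10). For siBcat (log2 fold change -0.51 ± 0.15, adjusted p = 0.0266) the adjusted p was 1.74e-11 without GSK126 replicate 3. It was 0.0818 with no filter, 0.0614, 0.0547 and 0.0687 without siCTL replicates 1, 2 and 3, and 0.0672 and 0.0608 without siBcat replicates 2 and 3. The treatments did not differ past the threshold (log2 fold change 0.20 ± 0.15, adjusted p = 0.333), except with the length trend removed (0.17, adjusted p = 0.0151).

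Sema4c, a Plxnb2 ligand, was at 41.1, 37.7 and 34.5 CPM in siCTL, 33.3, 31.5 and 32.5 with GSK126 and 28.6, 27.4 and 28.8 in siBcat. It fell in siBcat 1.34-fold, without overlap (log2 fold change -0.42 ± 0.07, adjusted p = 0.000402), and with GSK126, 1.16-fold (log2 fold change -0.22 ± 0.07, adjusted p = 0.0319). The GSK126 fall had an adjusted p of 0.128 without siCTL replicate 1, 0.0692 without siCTL replicate 2, 0.0773 without GSK126 replicate 2, 0.0598 with library size scaling alone and 0.0554 with only the groups compared. The difference between the treatments (log2 fold change -0.20 ± 0.07, adjusted p = 0.0309) was likewise lost without GSK126 replicate 1 (0.101) and without siBcat replicates 1, 2 and 3 (0.073, 0.119 and 0.0726), and with the length trend removed (0.0782). Sema4b fell in siBcat (log2 fold change -0.28 ± 0.07, adjusted p = 0.00851) and was lower there than with GSK126 (log2 fold change -0.41 ± 0.07, adjusted p = 0.000488).

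Sema6b rose with GSK126 (log2 fold change 0.39 ± 0.13, adjusted p = 0.0418), a call lost in 11 of 19 alternatives. Its adjusted p was 0.098, 0.109 and 0.0948 without siCTL replicates 1, 2 and 3, 0.143 and 0.0847 without GSK126 replicates 1 and 3, and 0.0543, 0.0504 and 0.0592 without siBcat replicates 1, 2 and 3. In siBcat it missed the threshold (log2 fold change -0.37 ± 0.14, adjusted p = 0.0509), yet passed it without GSK126 replicate 2 (0.0469) and without GSK126 replicate 3 (0.0468). The direct comparison put siBcat lower (log2 fold change -0.77 ± 0.13, adjusted p = 0.000536). Sema4a (log2 fold change -0.92 ± 0.39, adjusted p = 0.0864 in siBcat, or 0.048 with only the groups compared) and Sema4g (log2 fold change -0.04 ± 0.19, adjusted p = 0.895) changed past the threshold in no comparison.

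Among the receptors, both neuropilins fell in siBcat. Nrp1 (8:128358604-128503363), the Sema3a receptor and a co-receptor of Vegfa, was at 312, 315 and 314 CPM in siCTL, 293, 304 and 244 with GSK126 and 220.4, 207 and 217 in siBcat. Every siBcat library lay below every other (log2 fold change -0.55 ± 0.07, adjusted p = 7.32e-05, 1.46-fold), and siBcat was also below GSK126 (log2 fold change -0.39 ± 0.07, adjusted p = 0.000862). The GSK126 libraries, below the controls, missed the threshold (log2 fold change -0.16 ± 0.07, adjusted p = 0.114), although the adjusted p was 0.0383 without GSK126 replicate 2 and 0.0165 with the length trend removed. Nrp2, whose promoter match is printed above, was at 485, 488 and 473 CPM in siCTL, 446, 441 and 359 with GSK126 and 393, 359 and 392 in siBcat. It fell in siBcat (log2 fold change -0.34 ± 0.07, adjusted p = 0.00355). With GSK126 it was just short of the threshold (log2 fold change -0.22 ± 0.07, adjusted p = 0.0509), which it passed in 8 of 19 alternatives (0.0314, 0.0327 and 0.0163 without GSK126 replicates 1, 2 and 3). The siBcat libraries differed from GSK126 only without GSK126 replicate 3 (adjusted p = 5.05e-05), with library size scaling alone (0.035) or with the length trend removed (0.0185).

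Of 7 plexins tested, Plxna3, Plxnb1 and Plxnd1 fell in siBcat, none rose, and Plxna3 fell with GSK126. Plxnd1 (6:115954811-115995005), the Sema3e receptor, was at 138, 138 and 124 CPM in siCTL, 128, 127 and 101 with GSK126 and 84.9, 78 and 77.6 in siBcat. It fell 1.66-fold in siBcat, with no overlap with either group (log2 fold change -0.73 ± 0.09, adjusted p = 3.7e-05 against siCTL), and its ligand Sema3e fell there too. With GSK126 Plxnd1 did not pass (log2 fold change -0.17 ± 0.09, adjusted p = 0.17). Plxna3 (X:74329066-74344689), a partner of Nrp2 in Sema3f signalling, was at 37.3, 40.02 and 38.3 CPM in siCTL, 32.2, 33.7 and 26.5 with GSK126 and 24.6, 21.5 and 20.7 in siBcat. It fell 1.73-fold in siBcat (log2 fold change -0.79 ± 0.09, adjusted p = 2.72e-05) and 1.25-fold with GSK126 (log2 fold change -0.32 ± 0.09, adjusted p = 0.0194), the latter with adjusted p of 0.0666 without siCTL replicate 2 and 0.0518 without siCTL replicate 3. Plxna1, with 10.7% of its exon bases shared with another gene, was at 449, 440.4 and 411 CPM in siCTL, 447, 452 and 305 with GSK126 and 436, 402 and 413 in siBcat. Neither it (log2 fold change -0.06 ± 0.13, adjusted p = 0.76) nor Plxna2 (log2 fold change 0.00 ± 0.13, adjusted p = 0.996) passed the threshold in siBcat, and without GSK126 replicate 3 Plxna1 was lower in siBcat than with GSK126 (log2 fold change -0.11, adjusted p = 0.0311), whereas with it the value was 0.05 (adjusted p = 0.761). Against GSK126 directly, siBcat was lower for Plxnd1 (log2 fold change -0.56 ± 0.09, adjusted p = 0.00023) and Plxna3 (log2 fold change -0.47 ± 0.09, adjusted p = 0.00131).

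Plxnb1, the Sema4d receptor, was at 2.46 to 4.5 CPM in siCTL and 1.9 to 2 CPM in siBcat and fell there (log2 fold change -0.77 ± 0.21, adjusted p = 0.0115), with adjusted p = 0.0555 without siCTL replicate 2, and lay below GSK126 too (log2 fold change -0.73 ± 0.21, adjusted p = 0.013). Plxnb2 was at 492, 489.7 and 443 CPM in siCTL, 519.7, 518 and 444 with GSK126 and 544, 523 and 535 in siBcat. The siBcat libraries were above every control library, at log2 fold change 0.17 ± 0.07, adjusted p = 0.0617, which missed the threshold. The adjusted p was 0.000442 without GSK126 replicate 3, 8.9e-05 with the length trend removed, 0.00123 with only the groups compared, 0.0391 with a replicate block and 0.0369 with upper quartile scaling. With GSK126 its adjusted p was 0.559, and 0.0186 without GSK126 replicate 3. Against GSK126, siBcat missed the threshold (adjusted p = 0.191; 0.00743 with the length trend removed). Plxnb3 had at most 12 counts in any library and 6, 2 and 0 in siBcat (log2 fold change -1.64 ± 0.76, adjusted p = 0.112), and without siBcat replicate 1 the fitted log2 fold change, from 2 and 0 counts, was -3.04 (adjusted p = 0.0303), and against GSK126 -3.09 (adjusted p = 0.0221).

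**Figure D3:**
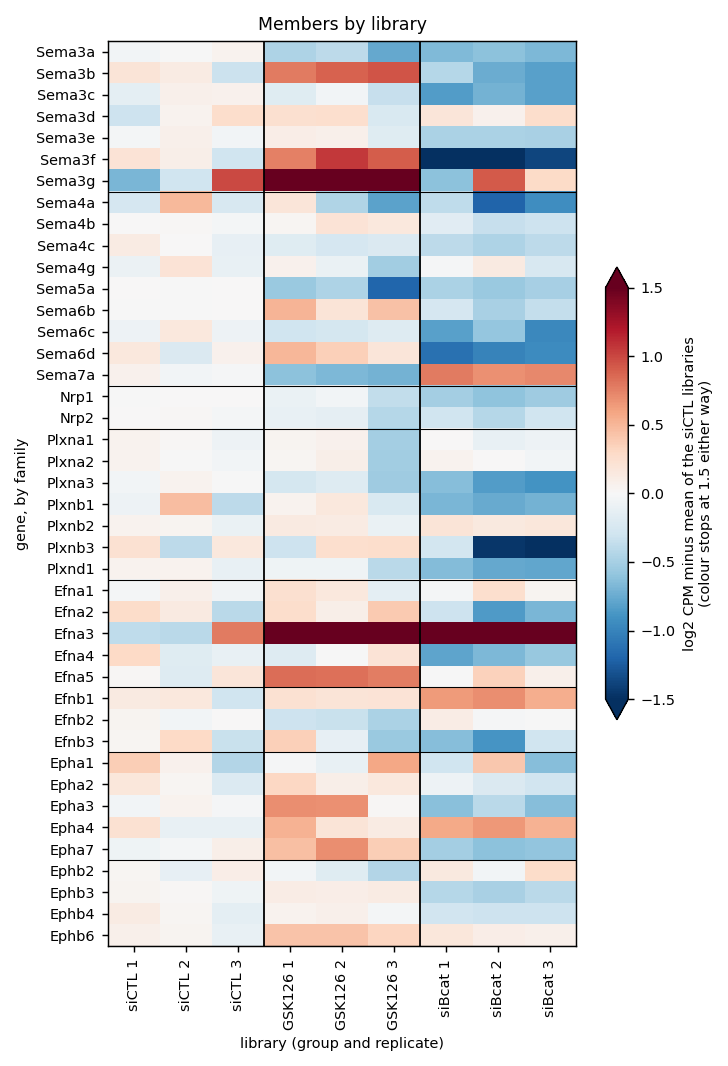
Log2 CPM of each tested member in each of the 9 libraries minus the mean of the siCTL libraries, with members in rows by family and libraries in columns by group, the colour scale stopping at 1.5 either way. Most rows of neuropilins and class 3 semaphorins are below 0 in the siBcat columns, and Sema7a and Efnb1 are above 0 there.

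Of 5 ephrins A tested, Efna3 and Efna5 rose with GSK126, while in siBcat Efna3 rose and Efna2 and Efna4 fell. Of 3 ephrins B, Efnb1 rose in siBcat and Efnb2 fell with GSK126. Efna5 (17:62604184-62881317), a ligand of EphA receptors with the CpG-dense promoter above, was at 5.25, 4.54 and 5.9 CPM in siCTL, 9.33, 9.23 and 8.85 with GSK126 and 5.16, 6.6 and 5.47 in siBcat. It rose 1.75-fold with GSK126, every library above all others (log2 fold change 0.80 ± 0.12, adjusted p = 0.000394). In siBcat it was not past the threshold (log2 fold change 0.14 ± 0.12, adjusted p = 0.422) and was lower there than with GSK126 (log2 fold change -0.67 ± 0.12, adjusted p = 0.000685). Efna3 had few counts in controls, with 4, 4 and 12 counts in siCTL, 50, 28 and 32 with GSK126 and 30, 30 and 50 with siBcat. It passed the filter through the treated groups, and 14.1% of its exon bases are shared with an antisense gene, while the strand setting of the counting is not given in the sources used here. Within those limits it was higher in both, 4.86-fold with GSK126 (log2 fold change 2.28 ± 0.44, adjusted p = 0.00253) and 5.47-fold in siBcat (log2 fold change 2.45 ± 0.44, adjusted p = 0.000885), without overlap with siCTL.

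Efna4, with 10.5% of its exon bases shared with another gene, fell in siBcat (log2 fold change -0.69 ± 0.15, adjusted p = 0.00264) and was below GSK126 as well (log2 fold change -0.69 ± 0.15, adjusted p = 0.00208). Efna2 at 1.99, 1.81 and 1.23 CPM in siCTL, 1.98, 1.75 and 2.17 with GSK126 and 1.31, 0.891 and 1.01 in siBcat had overlapping siCTL and siBcat libraries. Its fall (log2 fold change -0.65 ± 0.23, adjusted p = 0.0428) was lost without siCTL replicate 1 (0.153), siCTL replicate 2 (0.113), GSK126 replicate 1 (0.0538), siBcat replicate 2 (0.147) or siBcat replicate 3 (0.112) and with a replicate block (0.0521). It was lower than with GSK126 (log2 fold change -0.89 ± 0.22, adjusted p = 0.00681). Efna1, from 2.41 to 3.2 CPM, passed in no comparison.

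Efnb1, a ligand of EphB receptors that marrow stromal cells need for bone formation, was at 63.7, 64.4 and 47.1 CPM in siCTL, 67.5, 66.2 and 66.5 with GSK126 and 90.1, 94.1 and 84.2 in siBcat. It rose 1.53-fold in siBcat above every other library (log2 fold change 0.61 ± 0.10, adjusted p = 0.000511), while siBcat exceeded GSK126 by 0.42 on the log2 scale (adjusted p = 0.00475), with 0.0635 without GSK126 replicate 3. Efnb2, the Ephb4 ligand, was at 25, 23.7 and 24.4 CPM in siCTL, 19.6, 19.3 and 17.5 with GSK126 and 26.3, 24 and 24.2 in siBcat. It fell 1.3-fold with GSK126, where all 3 libraries were below all others (log2 fold change -0.37 ± 0.07, adjusted p = 0.00179), while in siBcat its value was log2 fold change 0.03 ± 0.07, adjusted p = 0.778. Directly compared, siBcat was above GSK126 (log2 fold change 0.40 ± 0.07, adjusted p = 0.000483). Efnb3, at 0.364 to 0.919 CPM, passed in no comparison.

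Of 4 EphB receptors tested, Ephb3 and Ephb4 fell in siBcat, and Ephb6 rose with GSK126. Ephb3 (16:21204755-21223305) was at 63.4, 62.5 and 58.9 CPM in siCTL, 66.6, 66 and 67.1 with GSK126 and 45.6, 43.9 and 46.4 in siBcat. It fell 1.36-fold in siBcat, below every other library (log2 fold change -0.44 ± 0.05, adjusted p = 3.39e-05), and the difference from GSK126 was 1.47-fold (log2 fold change -0.56 ± 0.05, adjusted p = 3.45e-06). Ephb4 fell as well (log2 fold change -0.31 ± 0.07, adjusted p = 0.00342), from a siCTL range of 49.5 to 59.5 CPM to 44 to 44.8, and was lower than with GSK126 (log2 fold change -0.34 ± 0.07, adjusted p = 0.0014). Ephb6, a member without kinase activity, was at 29.9, 29.1 and 26.2 CPM in siCTL, 38.2, 38 and 35.5 with GSK126 and 31.8, 30.5 and 29.98 in siBcat. It rose 1.31-fold with GSK126 with no overlap (log2 fold change 0.39 ± 0.06, adjusted p = 0.000807), and siBcat was lower than GSK126 (log2 fold change -0.28 ± 0.06, adjusted p = 0.00425). Against siCTL its siBcat value was log2 fold change 0.12 ± 0.07, adjusted p = 0.188, or 0.0391 with the length trend removed. Ephb2 passed in none of the 3 comparisons, with log2 fold change 0.35 ± 0.14, adjusted p = 0.0556 for siBcat against GSK126, where the adjusted p was 0.0345 without GSK126 replicate 1, 0.0429 without siBcat replicate 2 and 0.0143 with the length trend removed.

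Of 5 EphA receptors tested, Epha3 and Epha7 rose with GSK126 and fell in siBcat, where Epha4 rose. Epha7, whose promoter is shown above, was at 4.25, 4.36 and 4.71 CPM in siCTL, 6.08, 7.21 and 5.74 with GSK126 and 3.12, 2.87 and 2.93 in siBcat. The 3 groups were apart, with a 1.42-fold rise with GSK126 (log2 fold change 0.51 ± 0.12, adjusted p = 0.0069) and a fall in siBcat (log2 fold change -0.58 ± 0.12, adjusted p = 0.0029), and siBcat stood 2.13-fold below GSK126 (log2 fold change -1.09 ± 0.12, adjusted p = 1.41e-05). Epha3 was at 17.5, 18.6 and 17.7 CPM in siCTL, 29.1, 29 and 18.2 with GSK126 and 11.6, 13.6 and 11.5 in siBcat, so GSK126 replicate 3 sat among the controls while the other 2 of its group were well above. Its rise with GSK126 (log2 fold change 0.50 ± 0.16, adjusted p = 0.0385) became 0.69 (adjusted p = 2.12e-07) without that replicate, and was lost in 10 of 19 alternatives. The adjusted p was 0.109, 0.0874 and 0.117 without siCTL replicates 1, 2 and 3, 0.123 and 0.11 without GSK126 replicates 1 and 2, 0.061, 0.0501 and 0.0586 without siBcat replicates 1, 2 and 3, 0.0877 with no filter and 0.0593 with only the groups compared.

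In siBcat all Epha3 libraries were below all controls (log2 fold change -0.55 ± 0.16, adjusted p = 0.0212), with adjusted p of 1.15e-06 without GSK126 replicate 3. It was 0.0608 and 0.0579 without siCTL replicates 2 and 3 and 0.0672 and 0.0772 without siBcat replicates 1 and 3. The treatments differed (log2 fold change -1.05 ± 0.16, adjusted p = 0.000377). Epha4, in contrast, rose in siBcat (log2 fold change 0.58 ± 0.14, adjusted p = 0.0064), from 3.31 to 4.21 CPM in siCTL to 5.16 to 5.67 CPM. Its difference from GSK126 (log2 fold change 0.29 ± 0.14, adjusted p = 0.106) passed without GSK126 replicate 1 (0.0326) and with the length trend removed (0.044). Epha2, at 14.4 to 16.7 CPM in siBcat and 18.8 to 22 CPM with GSK126, was lower in siBcat than with GSK126 (log2 fold change -0.39 ± 0.10, adjusted p = 0.00829), and against siCTL its adjusted p was 0.146, or 0.0342 without siCTL replicate 3. Epha1, from 0.875 to 2.1 CPM, passed in no comparison.

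**Figure D4:**
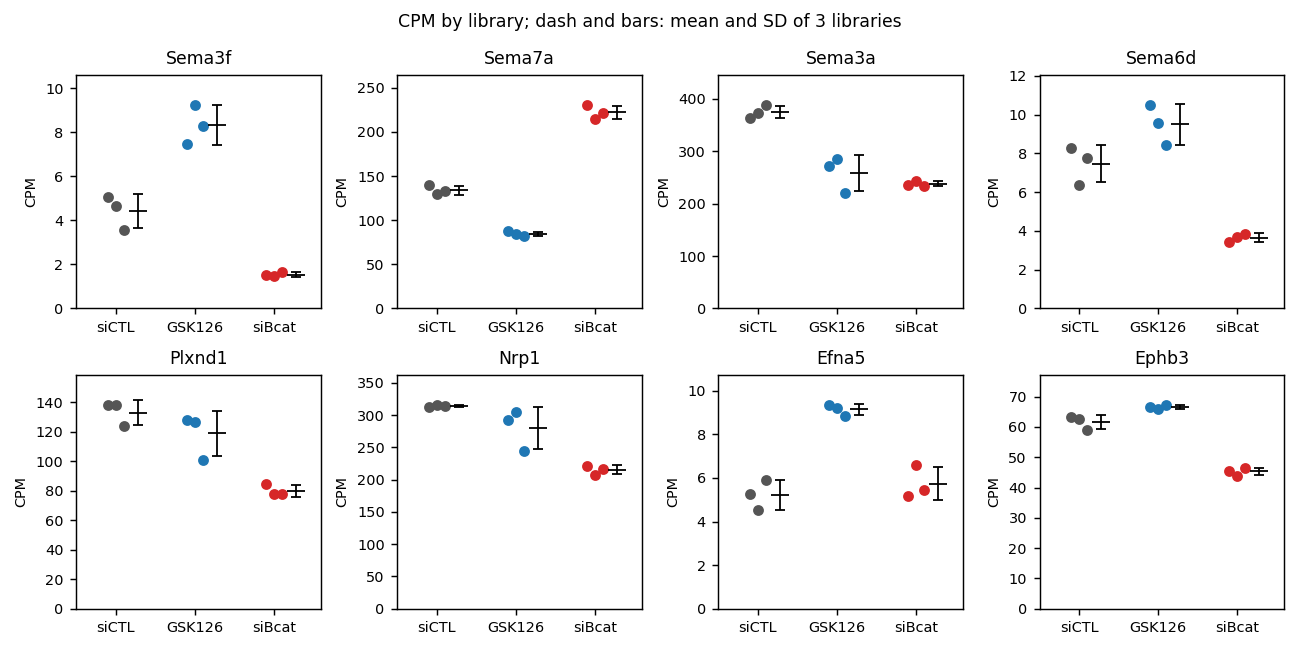
CPM in each library for members that the comparisons turn on, 1 panel per gene, with 1 point per library, a dash for the group mean and bars for the SD (n = 3). Sema7a lies above the controls in siBcat and below them with GSK126, while Sema3f lies below them in siBcat and above them with GSK126.

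Other genes of these pathways were listed by role. Of 31 genes that carry plexin and Eph signals inside the cell, 26 were tested, of which 5 rose and 4 fell in siBcat, and 3 rose and 5 fell with GSK126, with median log2 fold changes of 0.04 and -0.11. In siBcat these shares, 19.2% higher and 15.4% lower, were near those of all genes tested, 17.7% and 17.5%. With GSK126 they were 11.5% and 19.2%, against 14.3% and 10.7%. Mical2, which oxidises actin and is of the family that acts downstream of plexins, rose in siBcat (log2 fold change 0.68 ± 0.08, adjusted p = 3.84e-05). Adam10, a protease that sheds ephrins (log2 fold change -0.55 ± 0.07, adjusted p = 0.000101), the kinase Abl1 (log2 fold change -0.43 ± 0.07, adjusted p = 0.000276) and the adaptor Nck2 (log2 fold change -0.41 ± 0.07, adjusted p = 0.000824) fell. With GSK126 the Ras inhibitor Rasa1 fell (log2 fold change -0.51 ± 0.07, adjusted p = 0.000152), as did Abl1 (log2 fold change -0.32 ± 0.07, adjusted p = 0.00368). Rnd1, which binds plexins, rose (log2 fold change 1.12 ± 0.15, adjusted p = 0.000187) and Gipc1, which binds neuropilin tails, rose (log2 fold change 0.40 ± 0.10, adjusted p = 0.011), with adjusted p = 0.103 for Gipc1 without GSK126 replicate 3. Both rose in siBcat too, Rnd1 by 0.85 ± 0.16 (adjusted p = 0.001) and Gipc1 by 0.43 ± 0.10 (adjusted p = 0.00479). The treatments did not differ past the threshold in either gene (adjusted p = 0.145 and 0.839).

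Of 24 further guidance ligands and receptors listed, 15 were tested, with 3 higher and 3 lower in siBcat, and 3 higher and 2 lower with GSK126 (medians 0.14 and -0.01). The counts in siBcat are near the shares of all genes tested, 17.7% higher and 17.5% lower, and those with GSK126 near 14.3% and 10.7%. In siBcat the netrin receptor Unc5b rose (log2 fold change 0.72 ± 0.06, adjusted p = 1.29e-06) while its ligand Ntn1 fell (log2 fold change -0.53 ± 0.06, adjusted p = 2.11e-05). Rgmb, a BMP co-receptor, fell (log2 fold change -0.58 ± 0.07, adjusted p = 4.64e-05), and Unc5a, which passed the filter through the siBcat libraries, had 8 to 10 counts in siCTL and 28 to 32 in siBcat (log2 fold change 1.76 ± 0.35, adjusted p = 0.00176). With GSK126 Rgmb fell (log2 fold change -0.68 ± 0.07, adjusted p = 2.35e-05), as did Unc5b (log2 fold change -0.33 ± 0.06, adjusted p = 0.00143). Flrt3, which passed the filter through the GSK126 libraries, had 2 to 4 counts in siCTL and 10 to 18 with GSK126 (adjusted p = 0.0109). Slit3 rose from 8 to 18 counts to 40 to 42 (log2 fold change 1.39 ± 0.37, adjusted p = 0.0152), the latter with adjusted p = 0.0666 without siCTL replicate 3.

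Growth factors that bind neuropilins, with their receptors, were listed under 9 names, of which 8 were in the count table and 6 were tested. Of the 6, 3 were higher and 2 lower in siBcat, and 2 higher and 3 lower with GSK126 (medians 0.03 and -0.11). In siBcat these were 50.0% and 33.3%, against 17.7% and 17.5% of all genes tested. With GSK126 they were 33.3% and 50.0%, against 14.3% and 10.7%. Shares of 6 genes are too coarse for more than description. Figf (log2 fold change -1.05 ± 0.07, adjusted p = 2.2e-07) and Vegfc (log2 fold change -0.76 ± 0.10, adjusted p = 4.96e-05) fell in siBcat. Kdr, a receptor of Vegfa, rose from 12 to 22 counts to 42 to 54 (log2 fold change 1.52 ± 0.32, adjusted p = 0.00285) and Pgf rose (log2 fold change 0.35 ± 0.08, adjusted p = 0.00445). With GSK126, Vegfa (log2 fold change -0.55 ± 0.05, adjusted p = 5.52e-06), Figf (log2 fold change -0.57 ± 0.07, adjusted p = 5.43e-05) and Vegfc (log2 fold change -0.43 ± 0.09, adjusted p = 0.00534) fell, and Vegfb rose (log2 fold change 0.44 ± 0.08, adjusted p = 0.00153).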

How the data were processed

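Counts per gene and library were taken as the authors deposited them, in a table that also holds RPKM values, which the authors computed per the file headers from a gene length in bases and a library total. Here RPKM served only to check those totals, and the deposited lengths gave CPM per kb. The build was mm10 and the tools named were TopHat2 2.0.6, HTSeq and bcl2fastq, per the submitters' processing notes. All counts were even (0 odd values), as if both mates were counted. A further 6 columns of per-sample values and the ChIP-seq data were not used here.

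Tests used edgeR 4.0.16 in R 4.3.3: filterByExpr by group (minimum count 10, total 15), TMM, a robust quasi-likelihood fit over 9 libraries, and 3 contrasts, adjusted by Benjamini-Hochberg over 13240 genes (10118 filtered out). The 3 libraries per group carry replicate numbers only, and p-values measure the spread between them. SE is the log2 fold change divided by the root of F. The procedure was tested on simulated counts. Figures used Python 3.11.15 and matplotlib 3.10.9. The members and lists were chosen with earlier results of these data known. Members past the threshold with at least 1 CPM in a compared group were given in full, up to 12 per treatment and 6 for the direct comparison by adjusted p; Efna3 and Sema3g fall below that level and were named after their values were seen. From each other pathway list up to 4 genes for each treatment against siCTL were named by adjusted p, with siBcat values of Rnd1 and Gipc1 added. For these lists the direct comparison of the treatments is given for Rnd1 and Gipc1 alone. Alternatives were DESeq2 size factors, upper quartile, library size alone, no filter, 1 CPM in 3 libraries, DESeq2 1.42.0, halved counts, the groups compared alone, a replicate block, removal of the length trend (loess, span 0.5), and each library left out.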

Additional observations from a re-analysis of the deposited data

How the results depend on the processing

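Over 19 alternatives, none of 113 calls on named genes changed sign, while 29 of 76 values not past the threshold did so under some alternative. Of these, 1 then passed the threshold: Plxna1 in siBcat against GSK126, at -0.11 without GSK126 replicate 3 (-0.11 to 0.15 over all single omissions). Among member calls, 20 of 25 in siBcat against siCTL, 10 of 16 in GSK126 against siCTL and 24 of 26 in siBcat against GSK126 held under every alternative in which the gene was tested. Efna3 and Sema3g were not tested with the filter of 1 CPM. Leaving out 1 library gave 4 to 5 members higher and 16 to 22 lower in siBcat, 6 to 10 higher and 4 to 7 lower with GSK126, and 2 to 5 higher and 22 to 26 lower in siBcat against GSK126. The 6 came without siCTL replicate 2 and the 5 without GSK126 replicate 1. Over all genes, the same omissions gave 1695 to 3202 higher and 1815 to 3118 lower in siBcat, 1340 to 2029 higher and 988 to 1815 lower with GSK126, and 2053 to 3061 higher and 2363 to 3257 lower in siBcat against GSK126.

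With the length trend removed, siBcat against GSK126 had 7 members higher and 23 lower, against 3 and 23 in the main fit. Over all genes it then had 3991 higher and 2623 lower, against 2549 and 2901, and GSK126 against siCTL had 1743 higher and 2573 lower, against 1892 and 1419. Without GSK126 replicate 3, GSK126 against siCTL had 10 members higher and 7 lower.

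Same-numbered libraries of different groups did not deviate together (correlations -0.0306 to 0.0688), so the numbers were not taken as pairs. With the replicate block, 5 members were higher and 20 lower in siBcat, 9 and 6 with GSK126, and 3 and 23 in siBcat against GSK126.

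Members with few counts, such as Plxnb3 and Sema3g, had the largest standard errors, so small changes in them were not detectable at this depth. In simulated counts with only 200 of 13240 genes changed, most log2 changes of 0.25 were missed even in genes of at least 1 CPM. Far more genes passed in the real data, which makes the Benjamini-Hochberg cut less strict. The share missed in the simulation therefore does not carry over to this fit. Given the standard errors, a value not past the threshold is still no sign of no change.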
